A study of Mus musculus with 2 samples.

Results

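The receptor genes *Adra2a*, *Adra1b* and *Chrna2*, 3 of the 500 genes of the probe panel, were followed in embryonic mouse brain at E16.5, with 1 coronal section from a control (*Sst-Cre/tdTomato*) and 1 from a *Dnmt1* KO (*Sst-Cre/tdTomato/Dnmt1 loxP2*). They were chosen by the ratio of their KO to control levels in these same data, in which *Adra2a* and *Chrna2* had been seen lower, so the difference between the sections is given as a description. Both animals carry Cre recombinase under the control of *Sst*, the gene of somatostatin, and the tdTomato reporter, and only the KO animal carries the loxP-flanked *Dnmt1*, so that the deletion is driven in cells that express *Sst* and not in the whole brain. The measurement was MERFISH, which reads single RNA molecules in tissue by their fluorescent barcodes, on sections of 10 µm that held the brain and the tissues around it. The panel had no probes for *Dnmt1*, and the deletion itself could not be checked.

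*Adra2a* and *Adra1b* encode receptors for noradrenaline and adrenaline, transmitters that reach the forebrain along axons of brainstem neurons. The alpha-2A receptor made from *Adra2a* couples to Gi proteins, lowers cyclic AMP and holds back transmitter release where it sits on noradrenergic terminals. The alpha-1B receptor made from *Adra1b* couples to Gq proteins and raises intracellular calcium. *Chrna2* encodes the alpha-2 subunit of nicotinic acetylcholine receptors, ion channels opened by acetylcholine, and in the adult cortex and hippocampus it is known from a group of *Sst*-expressing interneurons.

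In the RefSeq annotation of GRCm38.p6, *Adra2a* lies on chromosome 19 from 54045259 to 54048982, *Adra1b* on chromosome 11 from 43774605 to 43901250 and *Chrna2* on chromosome 14 from 66133236 to 66152948. The 250 bases before the annotated starts are printed for *Adra2a* and *Adra1b* to place the genes and to show their CG pairs, the sites at which Dnmt1 methylates DNA. They come from RefSeq, are written 5′ to 3′ on the gene's strand and have each CG pair in capitals. The *Adra2a* window is chr19:54045009-54045258 on the plus strand, and both *Adra1b* windows are on the minus strand, at chr11:43901238-43901487 (start 1) and chr11:43836490-43836739 (start 2). Both *Adra1b* starts lie inside the gene span given above. The window of start 1 thus overlaps the end of that span, at 43901250, and the window of start 2 lies within it.
Adra2a: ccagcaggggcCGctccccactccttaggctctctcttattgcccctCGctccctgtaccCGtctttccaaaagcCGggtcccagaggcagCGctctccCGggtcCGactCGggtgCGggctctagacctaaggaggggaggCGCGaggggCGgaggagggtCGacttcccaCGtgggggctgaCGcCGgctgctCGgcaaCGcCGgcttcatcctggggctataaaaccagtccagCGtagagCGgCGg
Adra1b start 1: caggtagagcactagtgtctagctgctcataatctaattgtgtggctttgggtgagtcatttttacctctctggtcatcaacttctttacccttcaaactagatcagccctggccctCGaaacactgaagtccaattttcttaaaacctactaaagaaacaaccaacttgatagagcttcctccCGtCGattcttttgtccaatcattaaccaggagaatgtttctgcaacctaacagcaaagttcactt
Adra1b start 2: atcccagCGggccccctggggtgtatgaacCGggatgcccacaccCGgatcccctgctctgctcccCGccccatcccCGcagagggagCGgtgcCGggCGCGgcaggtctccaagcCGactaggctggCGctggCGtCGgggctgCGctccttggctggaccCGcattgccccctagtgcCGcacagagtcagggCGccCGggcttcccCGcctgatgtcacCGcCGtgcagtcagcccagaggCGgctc
The *Adra2a* window held 22 CG pairs, more than 85.2% of the 32851 windows of the same length. Start 2 of *Adra1b* also held 22, whereas start 1 held 3, fewer than the median of 6. At least 1 CG pair was found in 92.1% of all windows. Methylation was not measured in these sections, and the counts are a description of the sequence.

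The KO section was read far more deeply than the control section. Panel transcripts in cells numbered 2842355 in the control against 13437174 in the KO section, with a median of 20 and 101 per cell. A cell was kept if it had 20 or more (55231 control and 101250 KO cells). This kept 50.9% of the 108533 control cells but 92.0% of the 110004 KO cells, so the cut fell unequally on the sections. Levels are therefore given as counts per 1000000 panel transcripts of the kept cells (CPM). The intervals in parentheses are exact Poisson 95% intervals and, like all intervals here, cover counting error only. Each group had 1 section, so that genotype, section and imaging run cannot be told apart and replicate error is unknown. The number of probes per gene is not given in the sources used here, so levels of different genes are not ranked against each other.

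Each receptor gene was read above the false-decoding level in both sections. The measure of that level was the 50 blank barcodes, which code for no gene. Over the whole section *Adra2a* reached 1710 CPM (1657 to 1764) in the control and 831 CPM (816 to 846) in the KO section. These levels were 20.8 and 9.49 times the median blank, which stood at 82.1 and 87.5 CPM, and 6.52 and 3.46 times the highest blank. *Adra1b* reached 1012 CPM (972 to 1054) and 843 CPM (827 to 858), 3.86 and 3.51 times the highest blank. *Chrna2* reached 733 CPM (698 to 768) in the control section and 365 CPM (355 to 376) in the KO section. This was 2.80 times the highest blank in the control and 1.52 times in the KO section, so *Chrna2* stood closest to the blanks.

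In the pallial region, which was outlined from pallial and subpallial genes and covers part of the developing cortical wall, the margin of *Chrna2* was smaller. Its level there was 689 CPM (621 to 764) in the control section, 1.91 times the highest blank. In the KO section it was 329 CPM (309 to 349), 1.07 times the highest blank of 307 CPM, which lay just below the lower bound of the interval. *Adra2a* stood at 1591 CPM (1485 to 1701) and 879 CPM (847 to 913) in this region, 4.399 and 2.862 times the highest blank. *Adra1b* stood at 615 CPM (550 to 685) and 681 CPM (652 to 710), 1.70 and 2.22 times the highest blank. All 50 blanks lay below each receptor gene in both sections and both areas.

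**Figure D1:**
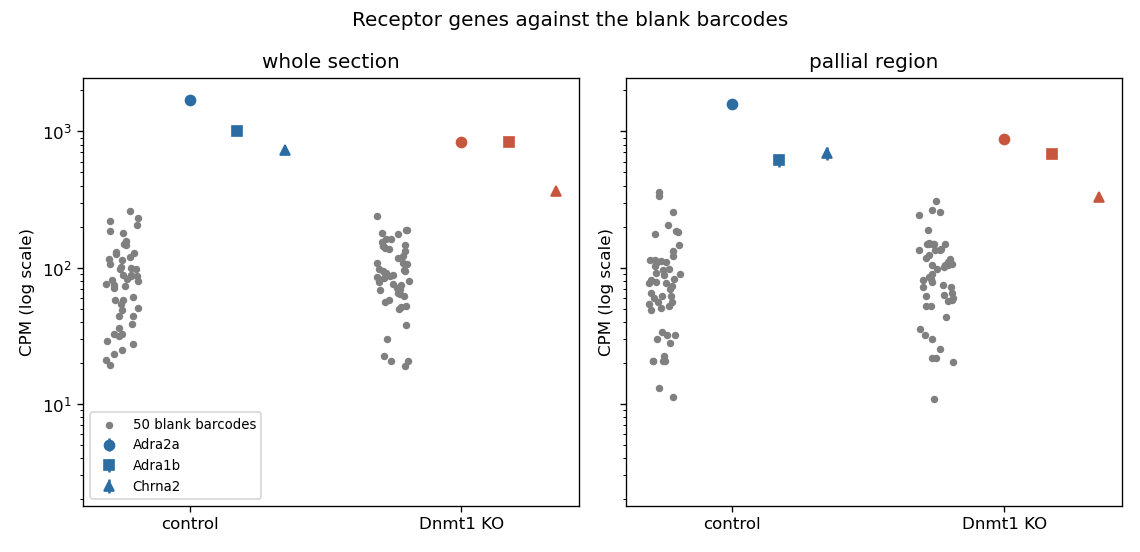
CPM (log scale) of the 3 receptor genes (blue, control; red, KO) and of the 50 blank barcodes (grey) over the whole section and in the pallial region, with Poisson 95% intervals that are mostly smaller than the symbols. In the pallial region of the KO section *Chrna2*, at 329 CPM, sits just above the highest blank at 307 CPM.

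The receptor genes occupied different places in the sections. *Adra1b* formed a band along the ventral side of the brain, below the striatum, in both sections. *Adra2a* was high in patches of the tissue around the brain in both sections and, in the control section, at the lateral ends of the pallial region. *Chrna2* was spread over the section with no layer or nucleus that stood out in both sections. The shell around the brain was set after seeing the data as the border zone rich in *Igf2*. A rim of 100 µm along this zone and the tissue edge, outside the pallial region, was counted as shell too. The shell therefore also held brain cells. It had *Adra2a* at 2195 CPM in the control and 1233 CPM in the KO section. In the rest of the brain, outside both the pallial region and the shell, *Adra2a* was at 1456 and 626 CPM. *Adra1b* ran the other way in the control section, with 751 CPM in the shell and 1376 CPM in the rest of the brain, whereas in the KO section it had 882 CPM in the shell and 897 CPM in the rest of the brain.

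**Figure D2:**
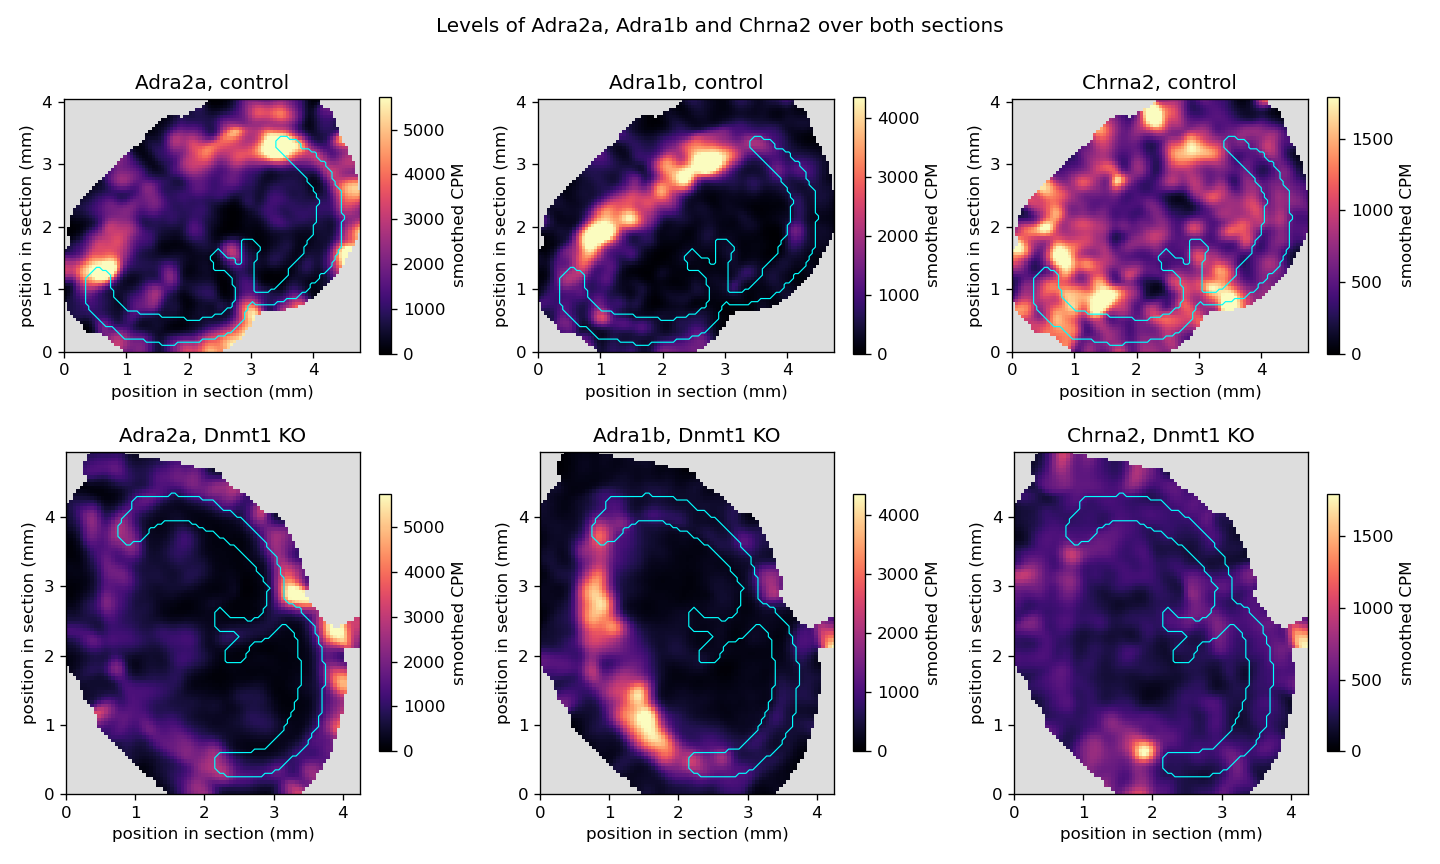
Smoothed CPM of each receptor gene over the control (upper row) and KO section (lower row), with position in mm on both axes, a common colour scale per gene and the pallial outline in cyan. The *Adra1b* band lies ventral to the striatum in both sections, and *Adra2a* is highest at the ends of the pallial outline in the control, whereas in the KO section it is highest at the border of the tissue.

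To ask which cells held the receptors, the kept cells were clustered without these 3 genes, so that their levels played no part in making the 27 clusters. A cluster is called by its leading genes, and by a cell type only where its markers allowed it, which was so for 12 clusters. *Adra2a* had its highest level in a cluster led by *Slc7a11*, *Bmp7* and *Crabp2*, which was left unnamed and had 67.9% of its control cells in the shell. There it reached 7513 CPM in the control and 5806 CPM in the KO section. This cluster held 3.06% of the panel transcripts of the control section but 13.4% of its *Adra2a* transcripts, and 2.51% and 17.5% in the KO section. It also held the most cells with 3 or more *Adra2a* transcripts, 47 of 198 in the control, against 242 of 753 in the KO section.

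A further 5 clusters had *Adra2a* above 2600 CPM in the control section. The MGE interneuron-like cluster led by *Elfn1* and *Sst*, most of whose cells lay outside the pallial region, had 3456 CPM in the control and 1326 CPM in the KO section. A deep-layer neuron-like cluster led by *Slc17a7* and *Nr4a2* had 3216 and 1122 CPM. A vessel cluster, led by the endothelial genes *Cldn5* and *Flt1* but left unnamed, had 2923 and 1276 CPM. The microglia-like cluster had 2899 and 1729 CPM, and a cluster of the shell led by *Hdc* and *Dcn* had 2685 and 1591 CPM. At the other end stood the radial glia-like cluster led by *Hopx* and *Aldoc*, with 142 CPM (65 to 269) in the control and 127 CPM (97 to 162) in the KO section, below its highest blank. The deep-layer neuron-like cluster led by *Mc4r* and *Fezf2* had 459 and 203 CPM, so the deep-layer neuron-like clusters differed widely in *Adra2a*. *Adra2a* was above the highest blank of the cluster in 19 of 27 clusters in the control, against 15 of 27 in the KO section.

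*Adra1b* was highest in the *Elfn1* and *Sst* cluster, with 3436 CPM in the control and 2849 CPM in the KO section. That cluster held 30.4% and 29.1% of all *Adra1b* transcripts against 8.95% and 8.60% of the panel transcripts. A cluster led by *Irs4* and *Calcr* had 2550 and 2181 CPM. Oligodendrocyte precursor-like cells had 1368 and 1281 CPM. The *Slc17a7* and *Nr4a2* cluster had 1526 and 1675 CPM, whereas the *Mc4r* and *Fezf2* cluster had 624 and 484 CPM. The microglia-like cluster had 297 and 499 CPM. *Adra1b* was above the highest blank in 16 of the 26 clusters counted for it in each section.

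The highest level of *Chrna2* over the clusters counted in the control section was 1469 CPM, in a shell cluster led by the muscle genes *Myh8* and *Ttn*. In the KO section that cluster had 680 CPM (592 to 777), an interval that included its highest blank of 633 CPM. A small cluster led by *Col9a2* and *Hapln1* had 1309 CPM (599 to 2485) in the control, from 9 transcripts. Its KO level of 285 CPM was below its highest blank of 407 CPM. The *Elfn1* and *Sst* cluster came close with 1213 and 651 CPM, and it held all 5 control cells and 44 of the 56 KO cells with 3 or more *Chrna2* transcripts. The lowest levels, 345 and 144 CPM, were those of the MGE interneuron-like cluster led by *Dlx1* and *Sp9*, below its highest blanks of 570 and 557 CPM. *Chrna2* was above the highest blank in 20 of the 25 clusters counted for it in the control section but in 11 in the KO section. Of the cells with any *Chrna2* transcript, 96.5% in the control against 94.2% in the KO section had a single one, at unequal depth. For *Adra2a* these shares were 81.0% and 76.0%, and for *Adra1b* 87.9% and 75.3%.

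Variation of *Chrna2* was measured as its spread across the 27 clusters, the SD relative to the mean after the counting variance had been taken off. The spread of *Chrna2* was 0.360 in the control against 0.356 in the KO section. The 50 blanks had medians of 0.453 and 0.460, and 15 and 14 of them had a smaller spread than *Chrna2*. The median panel gene had 1.02 in both sections. *Adra2a* had 0.784 and 0.866, above 46 of the 50 blanks in each section, and *Adra1b* had 1.10 and 1.09, above all 50. The profile over clusters was alike in both sections for *Adra2a* (Pearson r = 0.94 across 27 clusters on the log2 scale) and *Adra1b* (r = 0.86), and less so for *Chrna2* (r = 0.72). The median blank had r = 0.43, and 44 of the 50 blanks lay below *Chrna2*. These correlations are descriptions, since the clusters of a section share its library and depth.

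**Figure D3:**
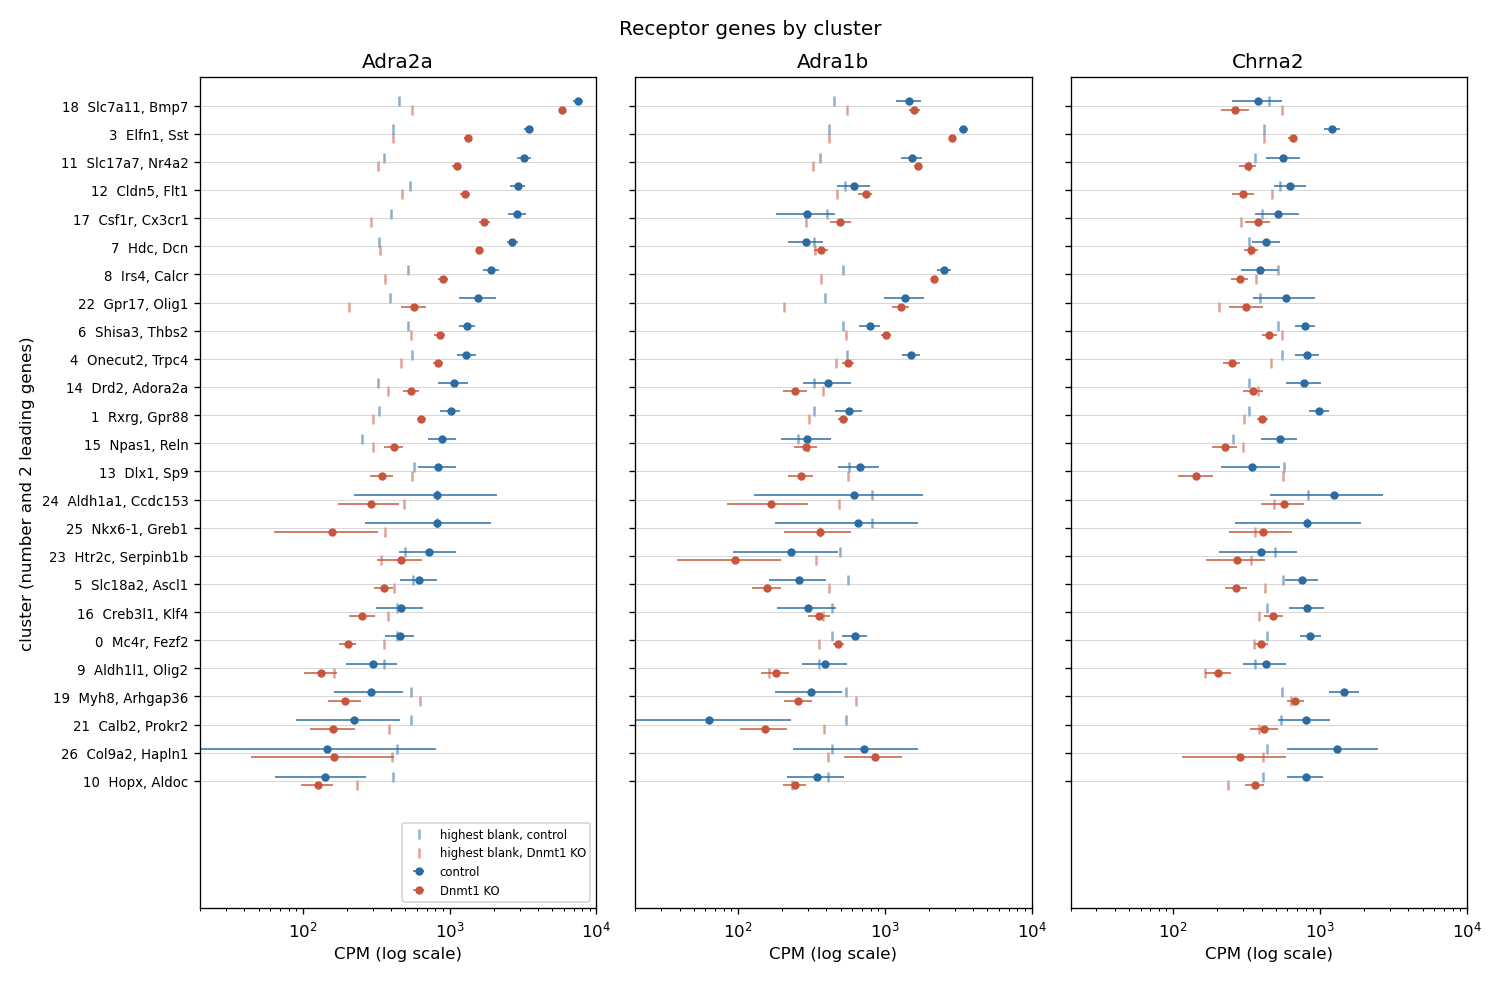
CPM (log scale) of each receptor gene in 25 of the 27 clusters of the control (blue) and KO section (red), with Poisson 95% intervals, ordered by the *Adra2a* level in the control section. The bars mark the highest of the 50 blanks in the same cluster, which *Adra2a* exceeds in 19 of all 27 clusters in the control against 15 in the KO section; 2 clusters are not drawn.

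The genes whose cluster profile was most like that of a receptor gene were found by the mean of both sections' Pearson correlations over the clusters counted. For *Adra2a* these were *Sstr4*, a somatostatin receptor gene (mean r = 0.67), *Npy1r*, a neuropeptide Y receptor gene (0.64), and *Adra1b* (0.58). The best of the 50 blanks had 0.42. For *Adra1b* they were *Grin3a*, the gene of an NMDA receptor subunit (0.75), *Il1rapl2* (0.72) and the orexin receptor gene *Hcrtr2* (0.70), with 0.51 for the best blank. For *Chrna2* they were *Vip* (0.47), *Cidea* (0.46) and *Gpr83* (0.43), and the best blank had 0.42. The likeness found for *Chrna2* was thus little above that of a blank.

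Shares of cells with a transcript rise with depth, so every cell was thinned to 25 panel transcripts and shallower cells were left out, 11347 in the control against 1678 in the KO section. After thinning, 3.55% of control cells (exact binomial 95% interval 3.38 to 3.73) and 1.65% of KO cells (1.57 to 1.73) had *Adra2a*. Without thinning these shares were 5.52% and 7.53%, in the opposite order. For *Adra1b* the thinned shares were 2.37% (2.23 to 2.52) and 1.75% (1.67 to 1.84), against 3.72% and 7.82% unthinned. For *Chrna2* they were 1.82% (1.70 to 1.95) and 0.859% (0.802 to 0.918), against 2.96% and 4.45% unthinned. Microglia-like cells, set beside them as cells of another kind, had a median depth of 44 and 129 transcripts before thinning against 34 and 109 over all kept cells. Their thinned shares for *Chrna2* were 1.17% (0.625 to 1.99) and 0.778% (0.436 to 1.28), from 13 and 15 cells with a transcript, and the intervals overlapped those of all cells. Their control *Chrna2* level of 520 CPM (362 to 724) was above the highest blank of the cluster, 401 CPM, but the interval included it. In the KO section 378 CPM (310 to 456) lay clear of the highest blank of 291 CPM, so there they were no background for *Chrna2*. For *Adra1b* the thinned shares were 0.901% (0.433 to 1.65) and 1.09% (0.675 to 1.66), below the share of all cells with no overlap of the intervals. Their *Adra1b* level was 297 CPM (182 to 459) in the control and 499 CPM (421 to 587) in the KO section. The latter was above the highest blank, so in the KO section they were no background for *Adra1b*. For *Adra2a* the thinned shares were 5.50% and 3.94%, higher than in all cells, so they were no background for *Adra2a* either.

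Within the pallial region the receptor genes differed in depth, given as relative depth from 0 at the outer to 1 at the inner edge of the outline. The outline was split by position into hemispheres, and the line between them counted as outer edge. The inner edge was not the ventricle: the outline held 12.6% of the radial glia-like cells led by *Hopx* in the control section against 9.62% in the KO section. *Adra2a* peaked at the outer edge. In the outermost of 10 depth bins it had 5440 CPM in the control and 4505 CPM in the KO section, and in the innermost bin 430 and 230 CPM. The log2 ratio of KO over control was -0.27 (-0.55 to 0.01) in the outermost bin and 0.36 (-0.08 to 0.81) in bin 2, with intervals that included 0. With a wider outline, chosen after seeing the data, the ratios were -0.43 (-0.71 to -0.14) and -0.78 (-1.24 to -0.30). In the middle 6 bins *Adra2a* stood at 1355 CPM in the control and at 548 CPM in the KO section. The median depth of an *Adra2a* transcript was 0.345 (0.287 to 0.398) in the control against 0.182 (0.172 to 0.199) in the KO section. The panel as a whole had medians of 0.503 and 0.512. By hemisphere the panel medians were 0.405 and 0.560 in the control and 0.586 and 0.437 in the KO section.

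In the outermost 2 bins the *Slc7a11* and *Bmp7* cluster held 37.2% of the *Adra2a* transcripts in the control against 54.6% in the KO section. The vessel cluster held 23.5% and 11.9%, and the microglia-like cluster 18.3% and 14.7%. In the inner 8 bins the *Slc17a7* and *Nr4a2* neurons held 50% and 47.3% of the *Adra2a* transcripts, with 19.1% and 21.2% of the panel transcripts. In all, 9 clusters had over 50% of their cells in the shell in each section. The microglia-like cluster was 1 of them, though 19.7% of its control and 22.4% of its KO cells lay in the pallial region. These 9 clusters made up 39.0% of the panel transcripts of the outermost bin in the control against 66.8% in the KO section. With these clusters left out, the outermost bin stood at 2996 CPM (2383 to 3719) in the control and 1885 CPM (1563 to 2254) in the KO section, with intervals apart. In bin 2 it then stood at 964 CPM (700 to 1294) and 963 CPM (842 to 1096), with intervals that overlapped. The median depths of *Adra2a* differed by -0.00929 (KO minus control), against -0.163 with them; leaving them out was chosen after seeing the data. The level of *Adra2a* in bins 3 to 10 was then 1103 CPM (1005 to 1207) in the control and 438 CPM (413 to 464) in the KO section.

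*Adra1b* was highest in bin 7 of both sections, with 998 CPM (772 to 1269) in the control and 1035 CPM (927 to 1151) in the KO section. In the innermost bin it had 349 and 294 CPM, and in the outermost 290 CPM in the control but 786 CPM in the KO section. The mean blank of the outermost bin also differed, with 44.6 and 88.4 CPM, and without the shell clusters *Adra1b* had 146 CPM (40 to 374) and 267 CPM (156 to 427) there, with intervals that overlapped. Its median depth was 0.578 (0.528 to 0.604) and 0.546 (0.528 to 0.570), with intervals that overlapped. *Slc17a7* and *Nr4a2* neurons held 42.4% and 48.2% of the pallial *Adra1b* transcripts. In the control section the interval of bin 7 overlapped those of several other bins, and by hemisphere the highest bins were 8 and 7 in the control and 1 and 7 in the KO section. *Chrna2* had no clear peak: in the KO section its bins ran from 244 to 392 CPM, and in the control section from 268 to 946 CPM with wide intervals. In the outermost bin it had 268 CPM in the control and 323 CPM in the KO section, a log2 ratio of 0.27 (-0.92 to 1.58). In each other bin *Chrna2* was lower in the KO section. Its median depth, 0.500 (0.462 to 0.548) and 0.519 (0.498 to 0.535), was near that of the panel. *Mc4r* and *Fezf2* neurons held 39.7% and 41.8% of the pallial *Chrna2* transcripts and 31.6% and 34.4% of the panel transcripts.

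**Figure D4:**
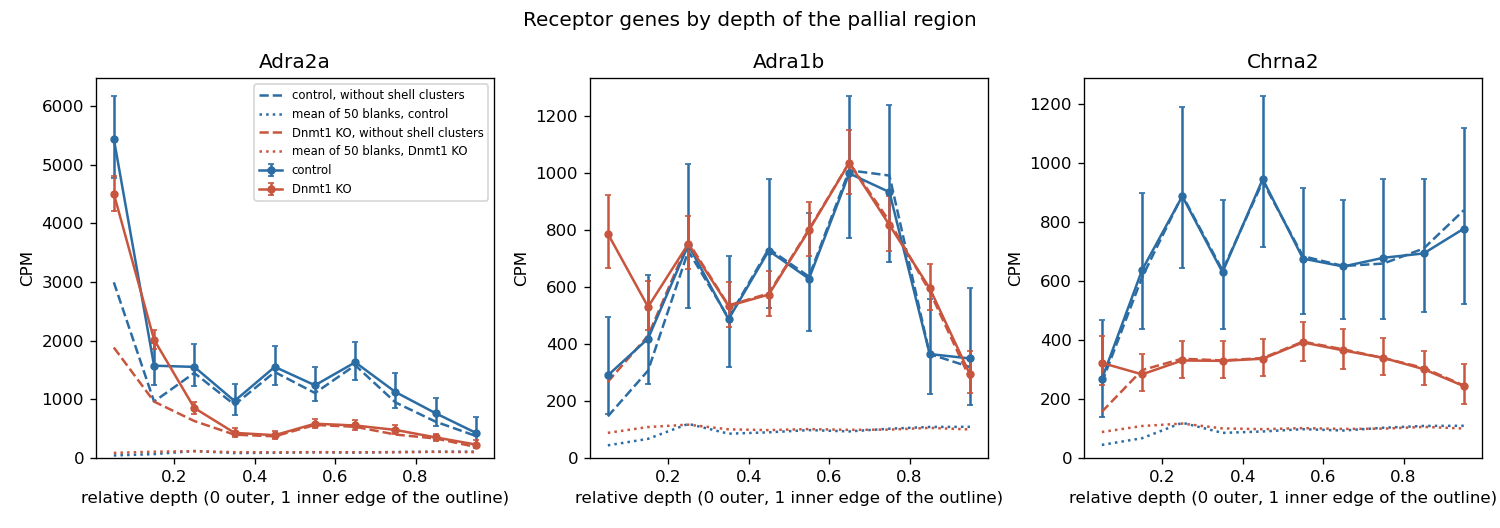
CPM of each receptor gene in 10 depth bins of the pallial region (0 outer, 1 inner edge of the outline) in the control (blue) and KO section (red), with Poisson 95% intervals. Dashed lines leave out the 9 clusters of the shell, the microglia-like cluster included, and dotted lines give the mean blank. *Adra2a* reaches 5440 and 4505 CPM in the outermost bin with all clusters and 2996 and 1885 CPM without those of the shell.

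The comparison of the sections asked whether the lower KO level of *Adra2a* and *Chrna2* held in every cell type. Over the whole section the log2 ratio of KO over control was -1.04 (-1.11 to -0.97) for *Adra2a*, -1.004 (-1.114 to -0.895) for *Chrna2* and -0.26 (-0.35 to -0.18) for *Adra1b*. A ratio's interval pairs opposite ends of both counting intervals. *Adra2a* and *Chrna2* thus lay at or below -1, as did 6 of the 250 better-expressed genes, those not under the median of the panel (2.4%), these included. Since this contrast chose them, nothing is read from that count. The median ratio of the 250 genes was 0.07, with a 5th percentile of -0.77, and the 50 blanks ranged from -1.11 to 1.29 with a median of 0.25.

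In the pallial region the ratios were -0.86 (-1.01 to -0.70) for *Adra2a*, -1.07 (-1.31 to -0.83) for *Chrna2* and 0.15 (-0.07 to 0.37) for *Adra1b*. *Chrna2* was 1 of 3 genes at or below -1 there (1.2% of 250). In the rest of the brain the ratios were -1.22, -1.16 and -0.62, and 14 of 250 genes (5.6%) lay at or below -1. In the shell they were -0.83 for *Adra2a*, -0.67 for *Chrna2* and 0.23 for *Adra1b*. *Adra2a* and *Chrna2* were thus lower in the KO section in each of these areas, and *Adra1b* in the rest of the brain alone.

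The hemispheres of a section are not replicates, but they give the values their range. In the pallial region *Adra2a* had 1510 and 1618 CPM in the hemispheres of the control and 845 and 924 CPM in those of the KO section. *Chrna2* had 850 and 634 CPM in the control and 337 and 318 CPM in the KO section. *Adra1b* had 806 and 549 CPM in the control and 605 and 780 CPM in the KO section. How many panel genes have hemisphere values that overlap between the sections was not computed, so nothing is read from these ranges.

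The direction was nearly the same in every cluster for *Adra2a* and *Chrna2*. A cluster was counted where it had at least 100 cells in each section and enough panel transcripts for at least 5 of the gene to be expected in each. *Adra2a* was lower in the KO section in 26 of 27 clusters, and in 19 of them the ratio's interval lay below 0. The exception was a small cluster led by *Col9a2* and *Hapln1*, with 1 control and 4 KO transcripts. *Chrna2* was lower in 25 of 25 clusters, with the interval below 0 in 18. *Adra1b* was lower in 17 of 26, with the interval below 0 in 5 and above 0 in 1. With pallial cells alone the lower direction held in 10 of 11 clusters for *Adra2a*, 8 of 10 for *Chrna2* and 3 of 10 for *Adra1b*. Among the 250 genes, 6 (2.4%) were lower in every cluster counted, *Chrna2* among them. The median gene was lower in 41.2% of its clusters. This contrast chose the genes too, so the counts describe how evenly the difference was spread. No share over the panel was computed for the counts of intervals or for those with pallial cells alone, so nothing is read from them.

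The size of the difference was less even than its direction. For *Adra2a* the lowest ratios among the clusters of over 1000 KO cells were -1.52 (-1.78 to -1.26) in the *Slc17a7* and *Nr4a2* neurons, -1.46 in oligodendrocyte precursor-like cells and -1.38 (-1.56 to -1.20) in the *Elfn1* and *Sst* cluster. The *Slc7a11* and *Bmp7* cluster, with the highest level, had -0.37 (-0.56 to -0.18), and this interval lay apart from those of the other clusters just named. The microglia-like cluster had -0.75 (-1.08 to -0.41) and the vessel cluster -1.20 (-1.48 to -0.91). Cells were also put in classes by their marker counts, and there the vessel cells differed less. Mural cells had *Adra2a* at 4331 CPM in the control and 3320 CPM in the KO section (-0.38, -0.69 to -0.07), an interval apart from that of the vessel cluster. Endothelial cells had 3353 and 2418 CPM (-0.47, -0.98 to 0.05), an interval that overlapped it. For *Chrna2* the ratio ran from -1.71 (-2.18 to -1.24) in a cluster led by *Onecut2* and *Trpc4* to -0.35 (-0.83 to 0.15) in the *Hdc* and *Dcn* cluster, apart from -2.20 in the *Col9a2* cluster with 9 and 7 transcripts. In the *Onecut2* and *Trpc4* cluster the KO level of *Chrna2*, 250 CPM, was below the highest blank of 466 CPM. *Adra1b* was lower in the *Onecut2* and *Trpc4* cluster, with 1518 CPM in the control and 562 CPM in the KO section (-1.43, -1.76 to -1.10). In the *Slc17a7* and *Nr4a2* neurons its ratio was 0.13 (-0.18 to 0.45), beside the -1.52 of *Adra2a* in the same cells.

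**Figure D5:**
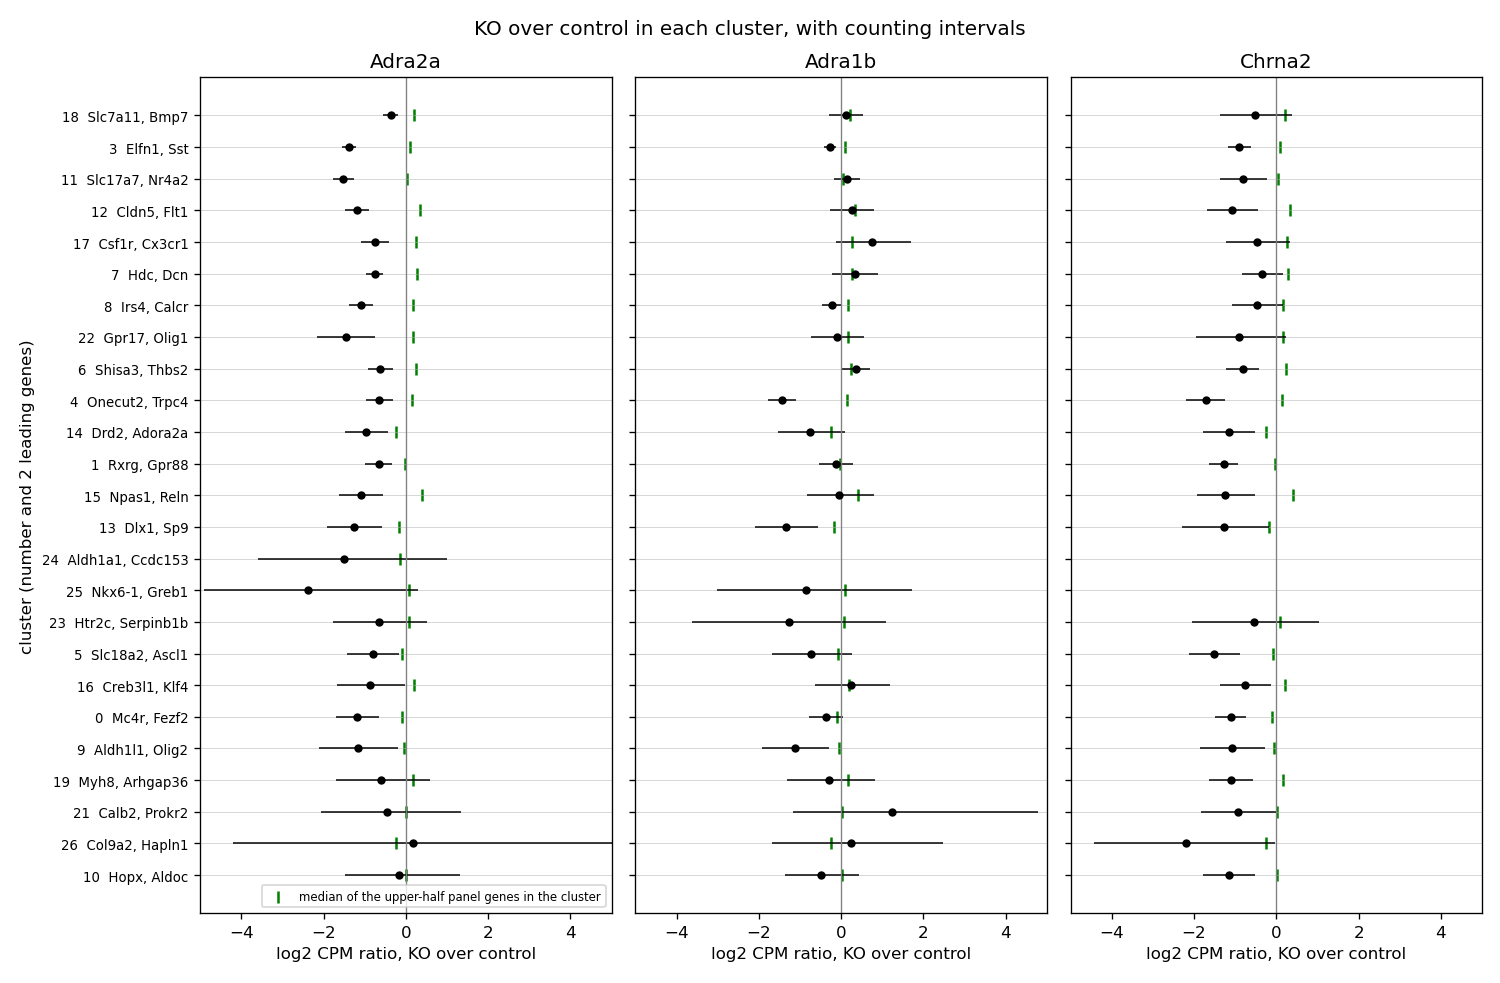
Log2 ratio of KO over control CPM for each receptor gene in the clusters counted, 2 of which are not drawn, with intervals that pair opposite ends of the Poisson 95% intervals (an interval that runs past 5 is cut at the axis). Green bars give the median ratio of the panel genes not under the median level within that cluster, a set that changes with the cluster. Of all clusters counted, *Adra2a* lies below 0 in 26 of 27, *Chrna2* in 25 of 25 and *Adra1b* in 17 of 26.

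In cells with at least 1 *Sst* and at least 1 *Gad1* or *Gad2* transcript, closest to those in which the deletion is driven, *Adra2a* had 2801 CPM (2355 to 3308) in 913 control cells and 1120 CPM (1054 to 1190) in 4603 KO cells. The ratio of -1.32 (-1.65 to -0.98) overlapped the -1.22 (-1.35 to -1.09) of *Gad1* or *Gad2* cells without *Sst*, as did -0.90 (-1.47 to -0.31) and -1.25 (-1.44 to -1.05) for *Chrna2*, whereas for *Adra1b* the intervals of -0.12 (-0.49 to 0.26) and -0.74 (-0.87 to -0.62) lay apart. In the 208 control and 1719 KO cells with at least 2 *Sst* transcripts the ratios were -1.59 (-2.13 to -1.02) for *Adra2a*, -0.04 (-0.71 to 0.69) for *Adra1b* and -0.27 (-1.45 to 1.14) for *Chrna2*, the last from 8 control transcripts. A cell meets these limits more easily at the greater depth of the KO section. How many panel genes have intervals apart between cells with and without *Sst* was not computed, so nothing is read from that of *Adra1b*. The part of cell mix was not tested.

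Some technical measures of the receptor genes also moved between the sections. *Chrna2* molecules outside segmented cells made up 12.7% in the control against 21.9% in the KO section, against 18.6% and 18.4% for the panel and 15.1% and 20.5% for the blanks. For *Adra2a* these shares were 16.0% and 19.1%, and for *Adra1b* 16.6% and 17.1%. For every 100 *Chrna2* molecules of imaging plane 0, plane 6 held 39.1 in the control against 77.5 in the KO section, where the panel had 23.6 and 43.2. With all decoded molecules, in cells or not, the whole-section ratios were -0.84 for *Adra2a* and -0.90 for *Chrna2*. In plane 0 alone they were -0.64 and -0.64. The part of depth, segmentation and imaging plane in these differences was not tested beyond these values.

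Of 44 genes of noradrenaline, adrenaline and acetylcholine signalling that had been listed, 16 were on the panel, 13 besides the receptor genes described. The listed nicotinic subunits other than *Chrna2* were not on it. In the whole section 7 of the 13 were lower in the KO section, with a median log2 ratio of -0.14, where 39.2% of all 500 genes were lower and their median was 0.13. In the pallial region 4 of the 13 were lower (median 0.06), against 34.8% of all genes (median 0.15), and in the rest of the brain 9 of the 13 (median -0.23), against 51.0% of all genes (median -0.01). In the whole section none was at or below -1, against 7 of all 500 genes, and 1 was at or above 1, against 22 of the 500. This was *Slc18a2*, the vesicular monoamine transporter gene, below the highest blank in the control section, with a ratio of 1.60, from 120 CPM in the control to 363 CPM in the KO section. Above the highest blank in both sections were 5 of the 13, *Chrm1* to *Chrm4* and *Adrb1*. *Chrm1*, a muscarinic receptor gene, had 1578 and 1069 CPM (ratio -0.56, -0.63 to -0.49), and *Chrm4* 537 and 333 CPM (-0.69, -0.81 to -0.57). *Adrb1*, the beta-1 adrenergic receptor gene, had 378 and 274 CPM (-0.47, -0.61 to -0.32), *Chrm2* 649 and 590 CPM (-0.14) and *Chrm3* 355 and 400 CPM (0.17). *Adra1d*, the other alpha-1 receptor gene of the panel, had 144 and 126 CPM, below the highest blank. *Dbh*, the gene of the enzyme that makes noradrenaline, and *Chat*, that of the enzyme that makes acetylcholine, did not reach the highest blank over the section either, with 112 and 133 CPM and 165 and 168 CPM.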

How the data were processed

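Per the labels, MERFISH was run with a Vizgen panel on 1 section per group. The authors deposited counts of decoded transcripts per segmented cell, with tables of cell positions and volumes and of single molecules. Segmentation and decoding were the authors', and nothing was normalised before deposit. Cells under 20 panel transcripts were left out, and counts were scaled to 1000000 panel transcripts per group of cells (CPM). The pallial region was outlined from pallial and subpallial genes in bins of 25 µm smoothed with an SD of 50 µm. Cells of both sections were log-normalised and the sections aligned with each other by reciprocal PCA integration before clustering. The cells were then clustered on 497 genes in Seurat 5.3.0 under R 4.3.3, with 30 principal components at resolution 0.8. Doublets were not called. A cluster was named where at least 3 markers of 1 list were among its top 10 genes, with a lead of 2 over the next list. Levels and exact intervals were computed in Python 3.11.15 with numpy 2.4.6, scipy 1.17.1 and pandas 2.3.3. The scripts were tested on simulated data. No test between groups was possible with 1 section each. Genes named were the receptor genes, the listed signalling genes on the panel, the 3 genes most alike for each and genes leading a cluster. The receptor genes and all lists were chosen with earlier results of these data known. The depth settings, outlines, clustering, blank subtraction and cell mix were varied. The values of 2 clusters are not reported here, though they stay in the counts over clusters.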

Additional observations from a re-analysis of the deposited data

Results flagged for a closer look

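*Adra1b* differed between the sections in opposite directions in 2 areas. Its log2 ratio of KO over control was -0.62 in the rest of the brain and 0.23 in the shell around the brain, a difference of -0.85. That shell includes a rim of 100 µm and holds brain cells too. There was 1 section per group, and the difference was not tested.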

How the results depend on the processing

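*Adra2a* and *Chrna2* kept a lower KO level in the whole section and the pallial region under each alternative run, but its size moved. For the whole section the log2 ratios of *Adra2a*, then *Adra1b*, were -0.90 and -0.18 with no minimum of transcripts, -0.94 and -0.14 with the KO counts thinned to the control depth, -0.84 and -0.17 with all decoded molecules and -0.64 and -0.11 in imaging plane 0, where *Chrna2* had -0.64. With a minimum of 50 transcripts *Adra2a* had -1.42 and *Chrna2* -0.75, and with the median blank subtracted -1.13 and -1.23. *Adra2a* had -0.91 with KO cells reweighted to the control cluster shares. In the pallial region *Adra2a* had -0.69 with no minimum, -1.38 with a minimum of 50, -0.68 with all decoded molecules, -0.42 in plane 0, and, in settings chosen after seeing the data, -1.26 with a wider outline and -1.22 without shell clusters. *Chrna2* had -0.56 with a minimum of 50, -1.38 with the blank subtracted and -1.42 in the lowest pairing of hemispheres. *Adra1b* changed direction, to -0.033 with a minimum of 50, -0.043 with the wider outline and -0.41 in the lowest pairing, against 0.51 in the highest. Its interval lay above 0 with no minimum (0.23, 0.03 to 0.44), with the KO thinned (0.30, 0.01 to 0.60) and with all decoded molecules (0.22, 0.04 to 0.42). Clusters lower in the KO section numbered 12, 9 and 12 of 12 marker classes for *Adra2a*, *Adra1b* and *Chrna2*, and 10 of 11, 3 of 10 and 8 of 10 with pallial cells only. For *Adra1b* they were 11 of 17 at resolution 0.4 and 10 of 24 with a minimum of 50. With that minimum they were 21 of 22 for *Chrna2* and 23 of 24 for *Adra2a*. This contrast chose the genes, and no share over the panel was computed for the counts under these alternatives, so nothing is read from them. The difference in median depth changed direction between pairings for *Chrna2* (-0.108 to 0.159) and reached 0.0459 for *Adra1b*, and for *Adra2a* it was -0.00929 without shell clusters. The cause was not tested. No paired analysis was possible because each group had 1 section. Control depth, at a median of 34 transcripts per kept cell, limits every ratio in small clusters.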
